A study of Mus musculus with 24 samples.

Results

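The 10 genes described here, Actl6a, Actl6b, Ss18, Ss18l1, Phf10, Dpf2, Dpf1, Dpf3, Bcl11a and Bcl11b, encode exchangeable subunits of the mammalian SWI/SNF (BAF) chromatin remodelling complex. They were chosen by gene symbol out of 55177 genes in the tables. The rule used no measured value, but earlier results of these data were known when the genes were chosen. BAF complexes use ATP to move nucleosomes, and some of their subunit positions can be filled by more than one paralogue. When neural progenitors leave the cell cycle, the progenitor subunits Actl6a (BAF53a), Ss18, Phf10 (BAF45a) and Dpf2 (BAF45d) are known to give way to the neuronal subunits Actl6b (BAF53b), Ss18l1 (CREST) and Dpf1 and Dpf3 (BAF45b and BAF45c), although Dpf2 is made in many cell types. The repressor Rest and the microRNAs miR-9-3p (also called miR-9*) and miR-124 are known parts of that exchange for Actl6a, and Bcl11a and Bcl11b (CTIP1 and CTIP2) are zinc-finger subunits that also mark cortical projection neurons.

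RNA was sequenced from 24 libraries of primary cortical neurons, taken from mouse embryos at embryonic day 16.5, in 10 groups. At 7 days in vitro (DIV7) the cells were wild-type neurons treated with 0.1% DMSO, either resting (n = 2) or depolarized for 30 min with 50 mM KCl (n = 2). At DIV18 all cells carried CRISPR guides, either non-targeting (NT; rest n = 2, KCl n = 2) or against Smarcc2, another BAF subunit. The Smarcc2 knockout (KO) cultures received vector (rest n = 3, KCl n = 3), wild-type Smarcc2 (WT; rest n = 2, KCl n = 3), Smarcc2(S586E) at rest (n = 3) or Smarcc2(S586A) under KCl (n = 2), 2 substitutions of the same serine. All cultures had been silenced overnight with 1 µM tetrodotoxin and 100 µM D-AP5. The labels count the cortex of each embryo as a biological replicate. The DIV7 RNA was poly(A)-selected and the DIV18 RNA was depleted of ribosomal RNA, so culture age, RNA selection, DMSO and the presence of a guide cannot be told apart. The S586E construct was measured only at rest and S586A only under KCl.

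Each library held 24422254 to 29995001 estimated counts at DIV7 and 14447367 to 23926652 at DIV18. Smarcc2 was at 237 to 283 CPM (estimated counts scaled to library size) in the NT libraries, 47.1 to 64.1 CPM in the KO libraries with vector, and 737 to 1340 CPM in those with any addback. Fos, an early-response gene, rose under KCl at DIV7 from a mean of 4.06 to 608 CPM (log2 fold change 7.23, adjusted p = 4.42e-08, edgeR). The depolarized libraries were uneven at DIV18, where Fos ran from 32.7 to 197 CPM, beside 598 and 618 CPM at DIV7. It also rose at DIV18 averaged over NT, vector and WT (3.90, adjusted p = 4.13e-06, edgeR), but in NT alone it did not pass (3.36, adjusted p = 0.0912). Of 12 early-response genes 12 were higher at DIV7 and 11 in that average. Summed markers of neurons lay between 3616 and 4004 rescaled TPM (transcript abundance corrected for length) at DIV7 and between 5233 and 6578 at DIV18, and those of progenitors or dividing cells between 43.6 and 51.5 and between 23.4 and 81.5. The rescaled TPM used throughout for levels sets the nuclear protein-coding genes of each library to the same sum, because they held 77.8% to 78.9% of the deposited TPM at DIV7 and 21.2% to 30.1% at DIV18.

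The microRNA site in Actl6a is shown because Actl6a and Actl6b form the pair with the largest ratio here, and of these only Actl6a carries the letters. The mature miR-9-3p (RefSeq, GRCm38.p6; made from 3 loci, on chromosomes 3, 7 and 13) is shown with its seed, bases 2 to 8, in capitals, and the Actl6a site with the letters complementary to that seed in capitals.
mmu-miR-9-3p: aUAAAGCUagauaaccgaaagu
Actl6a-201 3′ UTR site: tcaacgtctgtAGCTTTAgtacactcagga
The 30-base window lies on GRCm38 at chr3:32726629-32726658 on the plus strand, and the match is at bases 1677 to 1683 of the 2010-base transcript Actl6a-201, in the 3′ UTR. The letters AGCTTTA were searched on the transcript strand of GENCODE M21. They occurred in 3 of 8 Actl6a transcripts and in 0 of 9 Actl6b transcripts. The 3 Actl6a transcripts share the 1 genomic site shown, and of them only Actl6a-201 is annotated as protein-coding. The letters also occurred in 5 of 6 Bcl11a and 1 of 3 Bcl11b transcripts, and in no transcript of the other 6 genes. These counts take transcripts of all annotated types, unlike the share that follows. Of 58797 protein-coding transcripts in the annotation 12.4% hold these letters, so a match is a description and does not show that the site is used. No mature sequence of miR-124 is shown here.

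In every library the neuronal member of the actin-like and SS18 pairs was the more abundant one. Actl6b, the neuronal actin-like subunit, stood at 180.5 and 188 rescaled TPM in the resting DIV7 libraries and at 178 and 179.6 after KCl. Actl6a stood at 18.1 and 15.9 at rest and at 14.3 and 11.9 after KCl. At DIV18 the 20 libraries ran from 99.3 through a median of 119 to 125 for Actl6b and from 7.49 through 11.1 to 14.3 for Actl6a. The ranges of the paralogues were far apart at both ages, and the Actl6b to Actl6a ratio within a library was between 9.98 and 15.1 at DIV7 and between 7.86 and 15.9 at DIV18. Since these are bulk cultures, a low level of a progenitor subunit could come from few cells or from little RNA per cell, which cannot be told apart.

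Ss18l1, which encodes the calcium-responsive coactivator CREST, stood at 44.5 and 47.3 rescaled TPM in resting and 40.5 and 41.5 in depolarized DIV7 libraries. Its paralogue Ss18 stood at 12.9 and 14.6 at rest and at 9.56 and 11.4 after KCl. At DIV18 Ss18l1 kept to a narrow band, from 37.7 through a median of 40.4 to 43.9, while Ss18 ran from 7.99 through 10.7 to 14.3. The Ss18l1 to Ss18 ratio was 3.24 to 4.23 at DIV7 and 2.91 to 5.25 at DIV18, above 1 in 24 of 24 libraries. When protein-coding transcripts alone were summed, the mean log2 ratio at DIV18 moved from 1.89 to 2.38 (SD of the former 0.231). Ss18-205, a form annotated for nonsense-mediated decay, held a median of 13.4% of Ss18 at DIV18 and 0% at DIV7. Single libraries varied widely, from 0% in depolarized NT replicate 2 to 44.1% in resting vector replicate 3, and resting DIV7 replicate 2 was at 5.83%. Ss18 had only 117 to 245 estimated counts in a DIV18 library.

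The PHD-finger subunits did not separate in this way. Dpf1, a neuronal member, had the highest rescaled TPM of the 10 genes at both ages. Its DIV7 libraries were at 193 and 227 rescaled TPM at rest and 189 and 227 after KCl, and at DIV18 it ran from 154 through 176 to 213. Part of this lay in short forms: in resting DIV7 libraries Dpf1-207 (428 bases) held 42.0 and 56.6 and Dpf1-209 (438 bases) 24.7 and 23.9. In CPM, which is not per length, Bcl11a was higher than Dpf1. The means were 180.5 and 116 in resting DIV7 libraries and 89.1 and 73.7 in resting NT libraries, where Phf10 was at 89.8. Actl6a had the lowest mean CPM in the same groups, at 10.15 and 5.18, beside 10.17 and 6.19 for Dpf3. In rescaled TPM Dpf3, the other neuronal member, had the lowest mean of the 10 at both ages. It was at 10.3 and 12.6 at rest and 12.9 and 12.2 after KCl at DIV7, and at 6.63 through 10.7 to 14.0 at DIV18. Its range overlapped those of Ss18 and Actl6a at both ages, and in both depolarized DIV7 libraries Ss18 was the lower. The progenitor members were both abundant: Phf10 ran from 91.5 to 95.1 at DIV7 and from 70.0 to 124 at DIV18, and Dpf2 from 46.0 to 82.1 and from 62.4 to 107.

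The summed level of Dpf1 and Dpf3 over that of Phf10 and Dpf2 had a median ratio of 1.44 at DIV7 and 1.02 at DIV18. On the log2 scale the ratio was 0.23 and 0.53 in the resting and 0.53 and 0.71 in the depolarized DIV7 libraries, and it ran from -0.39 through 0.02 to 0.51 at DIV18, above 0 in 10 of the 20 libraries. Within DIV18 the 3 vector libraries under KCl (mean -0.24, SD 0.134) and the 3 WT libraries under KCl (mean -0.17, SD 0.0644) were all below 0, whereas both NT libraries under KCl were above it (mean 0.18, SD 0.0227). The resting S586E libraries had the highest mean of the DIV18 groups (0.34, SD 0.187, n = 3). These ratios are given with no test. Their level depends on the transcripts summed: with protein-coding transcripts alone the mean was 1.26 at DIV7 and 0.56 at DIV18. With estimated counts, which are not per length, the mean turned below 0 at both ages. Phf10-203, a form annotated for nonsense-mediated decay, held a median of 39.0% of Phf10 at DIV7 and 47.3% at DIV18.

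Of the zinc-finger pair, Bcl11a was the higher in 24 of 24 libraries. It stood at 124.1 and 124.4 rescaled TPM in resting and 139 and 137 in depolarized DIV7 libraries, and ran from 73.2 through 85.9 to 106 at DIV18. Bcl11b, a marker of deep-layer projection neurons, stood at 38.7 and 48.1 at rest and 42.5 and 45.8 after KCl at DIV7, and ran from 20.002 through 23.5 to 37.0 at DIV18. Its 2 highest DIV18 values were in KO cultures at rest, replicate 1 with vector and replicate 1 with S586E (35.1). The Bcl11b to Bcl11a ratio lay between 0.305 and 0.387 at DIV7 and between 0.232 and 0.408 at DIV18.

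**Figure D1:**
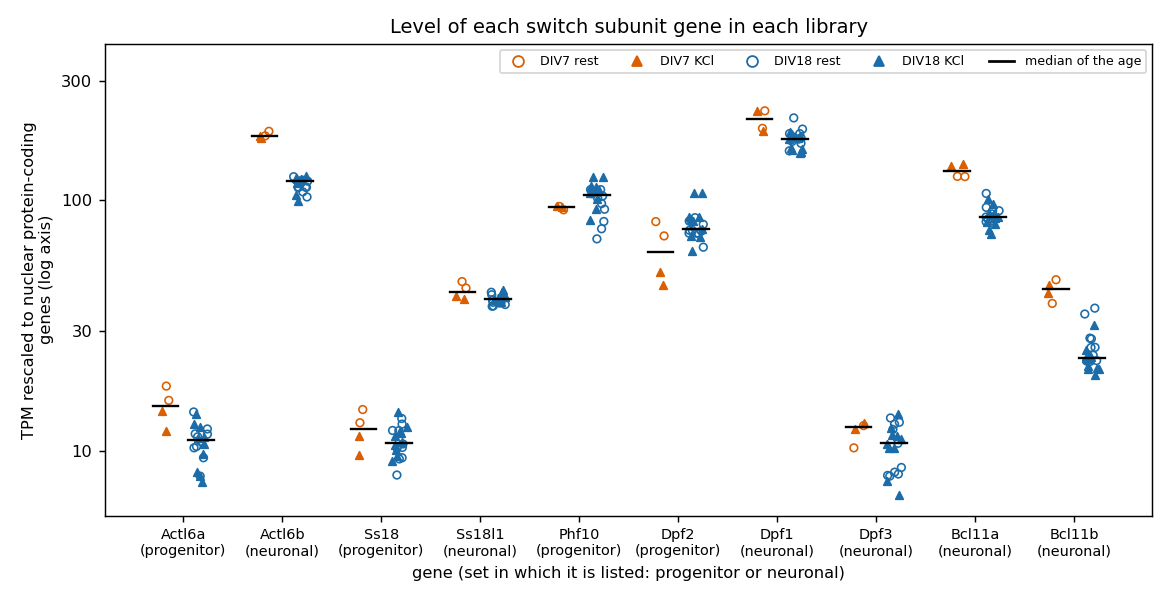
Level of each of the 10 genes in each library, in rescaled TPM on a log axis; open circles are resting and filled triangles depolarized libraries, orange DIV7 (n = 4) and blue DIV18 (n = 20), and bars are medians. Actl6b and Ss18l1 lie above Actl6a and Ss18 in all libraries, while Dpf1 is the highest gene and Dpf3 among the lowest.

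On GRCm38 the genes lie on different chromosomes except Dpf3 and Bcl11b, which share chromosome 12: Actl6a at chr3:32706298-32726973, Actl6b at chr5:137553517-137569582, Ss18l1 at chr2:180042509-180070201, Dpf2 at chr19:5896516-5913010, Bcl11a at chr11:24078056-24174123 and Bcl11b at chr12:107910403-108003602. Actl6a, Phf10, Dpf1, Dpf2 and Bcl11a overlap an annotated gene on the other strand. The strand setting of the counting was not given in the sources used here, so reads of the 2 strands cannot be told apart where they overlap. All 10 genes passed the filter on low counts in all comparisons.

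Ordered by mean level, DIV7 cultures gave Dpf1, Actl6b, Bcl11a, Phf10, Dpf2, Bcl11b, Ss18l1, Actl6a, Ss18 and Dpf3. The ranges of 4 neighbouring pairs overlapped: Dpf2 with Bcl11b, Bcl11b with Ss18l1, Actl6a with Ss18, and Ss18 with Dpf3. At DIV18 the order was Dpf1, Actl6b, Phf10, Bcl11a, Dpf2, Ss18l1, Bcl11b, Ss18, Actl6a and Dpf3. There the ranges from Actl6b down to Dpf2 overlapped between neighbours, as did those of Ss18, Actl6a and Dpf3. The top gene lay at the 95.2 percentile of 20008 detected protein-coding genes at DIV7 and the lowest at the 54.4 percentile, and at DIV18 at the 94.1 and 50.1 percentiles of 20102. The lowest genes rest on few reads: Actl6a had 52 to 135 estimated counts in a DIV18 library and Dpf3 had 56 to 152, against 777 to 1262 for Actl6b.

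**Figure D2:**
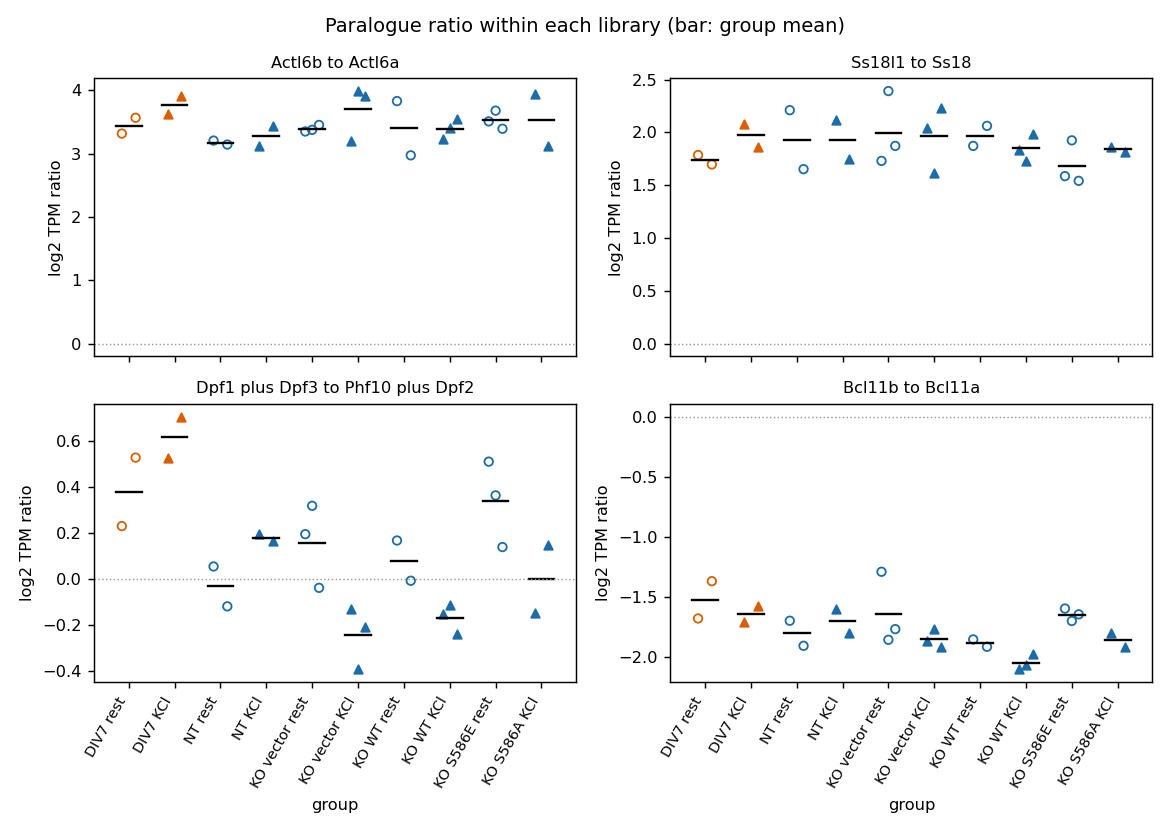
Log2 TPM ratio of the paralogues in each library by group; points are libraries, black bars are group means, and the dotted line is a ratio of 1. The Actl6b to Actl6a and Ss18l1 to Ss18 ratios stay above 0 in all 24 libraries, the Bcl11b to Bcl11a ratio stays below it, and the PHD-finger ratio lies on both sides.

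The first comparison asks whether depolarization changes the RNA of these subunits in young neurons. At DIV7, Dpf2 was the 1 gene of the 10 that passed the test, and it was lower after KCl. Over all genes tested, 3371 of 19822 passed, which is 17%. Dpf2 was at 50.6 and 46.3 CPM in the resting and at 33.5 and 36.3 CPM in the depolarized libraries. Both depolarized libraries lay below both resting ones. Its log2 fold change was -0.47 (SE 0.0742, 95% interval -0.65 to -0.30, adjusted p = 0.00746, edgeR).

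The other 9 genes gave smaller values. Bcl11a was at 180.5 ± 4.79 CPM at rest and 201 ± 2.95 CPM after KCl (SD, n = 2 each), without overlap, and did not pass (log2 fold change 0.15, SE 0.0441, adjusted p = 0.0564, edgeR). It passed with median-of-ratios size factors. For Actl6a the value was -0.30 (adjusted p = 0.137), for Ss18l1 -0.14 (0.134), for Ss18 -0.25 (0.175), for Phf10 0.10 (0.198) and for Actl6b -0.05 (0.601), all from edgeR. The intervals of all 10 genes lay between -0.65 and 0.29, so that at DIV7 a change as large as 2-fold lay outside every one of them. The median over the 10 was -0.05, beside -0.0014 over all genes tested.

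Summed markers of other cells were also lower in the depolarized DIV7 libraries. Astrocyte markers summed to 265 to 288 rescaled TPM at rest and 237 to 242 after KCl, oligodendrocyte-lineage markers to 67.5 to 71.9 and 59.2 to 61.8, and progenitor or dividing-cell markers to 51.5 in both libraries and 43.6 to 44.99. Of these lists 2 of 7, 0 of 7 tested and 1 of 9 genes were called, all lower: Gfap, Slc1a3 and Hes5. Of all 19822 genes tested, 1916 were called lower and 1455 higher. The neuronal sum was lower as well, at 3882 to 4004 and 3616 to 3760. Their part in the Dpf2 value was not tested.

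At DIV7 the fall of Dpf2 was spread over several of its transcripts. The main protein-coding form, Dpf2-202, stood at 33.97 and 34.3 rescaled TPM at rest and at 25.9 and 27.3 after KCl. The retained-intron form Dpf2-203 went from 24.4 and 17.6 to 9.67 and 12.8, Dpf2-204 from 13.9 and 10.1 to 5.28 and 6.45, and Dpf2-207 from 4.39 and 6.88 to 1.78 and 1.26. No library of one state overlapped the other for any of these 4 forms. Retained-intron forms held 53.1% and 49.6% of Dpf2 at rest and 37.2% and 40.7% after KCl.

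Lower retained-intron forms after KCl were common at DIV7. Among 5329 genes with at least 1 rescaled TPM of such forms, 60% were lower in both depolarized libraries than in both resting ones and 10.5% were higher, with a median log2 ratio of -0.53. Among the members 7 had such forms at that level, and 5 were lower without overlap: Dpf2 (log2 ratio -1.03), Phf10 (-1.59), Actl6b (-1.55), Actl6a (-1.13) and Ss18 (-0.94). For protein-coding forms the share of all 13115 genes that was lower without overlap was 30.3% and the median log2 ratio -0.01, and Dpf2 was at -0.35 on that scale. These log2 ratios add 0.5 TPM to each mean and are given as a description, with no test. At DIV18 the retained-intron share of Dpf2 was smaller, at 10.4% and 7.24% in the resting NT libraries, which were made from RNA selected in another way.

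The transcripts of Bcl11a, whose gene sum did not pass, went different ways with KCl at DIV7. Bcl11a-201, whose coding sequence has 2319 bases and whose annotated end is at base 24173194 of chromosome 11 (GRCm38), went from 63.1 and 63.8 rescaled TPM at rest to 88.2 and 88.5 after KCl. Bcl11a-202, which has 2505 coding bases and ends at base 24168429, went from 27.9 and 26.1 to 22.6 and 21.4. Bcl11a-204, with 573 coding bases and an end at base 24173558, went from 27.4 and 30.1 to 21.6 and 21.98. The resting and depolarized libraries did not overlap for any of the 3 forms, and no test was run on single transcripts. With 2 libraries per state, lack of overlap was common. For the summed protein-coding forms of a gene, 30.3% of 13115 genes were lower and 25.7% higher without overlap.

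**Figure D3:**
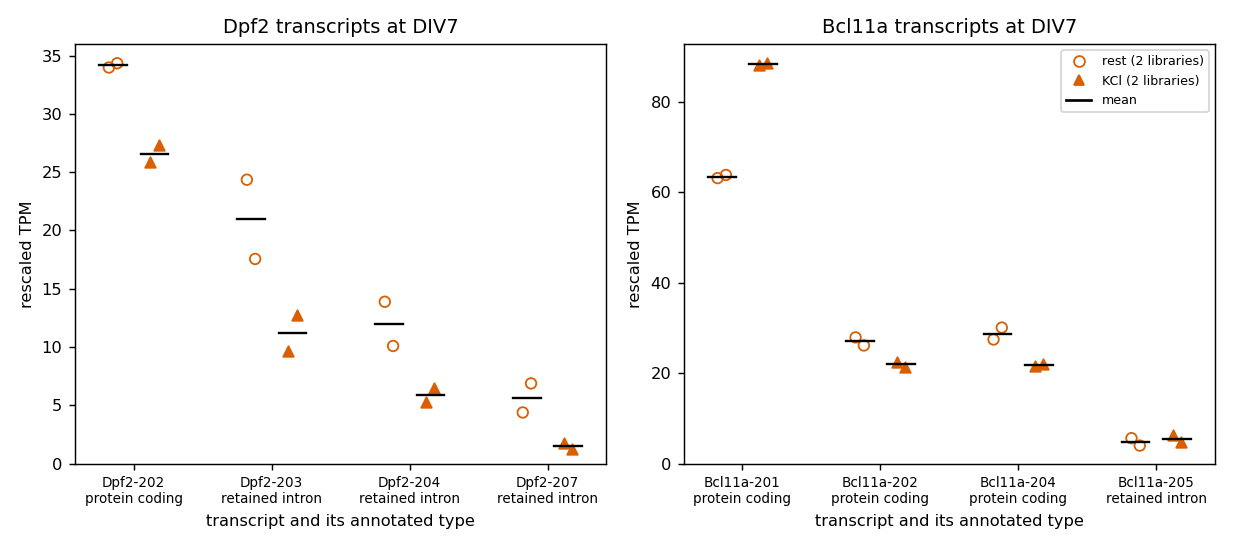
Rescaled TPM of 4 transcripts each of Dpf2 and Bcl11a in the 4 DIV7 libraries; circles are resting and triangles depolarized libraries, and bars are means of 2. All 4 Dpf2 forms are lower after KCl, while Bcl11a-201 is higher and Bcl11a-202 and Bcl11a-204 are lower.

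The sequence before the RefSeq start of Dpf2 is shown because Dpf2 was the member that passed under KCl at DIV7. It holds 250 bases (RefSeq, GRCm38.p6, chr19:5912872-5913121, minus strand, written in the direction of transcription), with the 1 match to TGACG on either strand in capitals.
Dpf2 promoter: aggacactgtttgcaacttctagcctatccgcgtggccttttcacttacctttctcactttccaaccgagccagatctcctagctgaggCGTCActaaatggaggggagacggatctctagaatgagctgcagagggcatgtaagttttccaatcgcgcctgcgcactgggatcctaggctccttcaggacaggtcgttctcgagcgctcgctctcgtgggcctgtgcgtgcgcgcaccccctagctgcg
TGACG is the core of the cAMP response element TGACGTCA, and the full element contains it. In 300-base windows around the start, searched on both strands, TGACG was present in 20.8% of 32851 promoters and in 3 of the 9 members with an entry (Dpf2, Phf10 and Ss18l1). The full element TGACGTCA was in 1.79% of promoters and the AP-1 letters TGANTCA in 7.81%, and each was in 0 of the 9. A match describes letters in a window and not binding.

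At DIV18 none of the 10 genes passed the test for KCl against rest in any construct. In NT cultures 0.00955% of 20940 genes passed, in KO with vector 0.0716%, in KO with WT 0.043%, and averaged over the 3 constructs 0.449%. Counting unadjusted p-values under 0.05 instead, the members gave 0, 2, 0 and 0, beside 4.33%, 10.3%, 4.97% and 7.95% of all genes (edgeR), and with DESeq2 no member passed in any of the 4. Dpf2 was at 50.8 and 52.7 CPM in resting and 50.7 and 46.4 CPM in depolarized NT libraries, the latter both just below the former (log2 fold change -0.09, SE 0.0920). Averaged over constructs its value was 0.02 (SE 0.0485, 95% interval -0.08 to 0.12, adjusted p = 0.961, edgeR), an interval that does not reach the DIV7 value of -0.47.

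The averaged values of the 10 genes ran from -0.11 for Bcl11b to 0.16 for Ss18, and their intervals from -0.34 to 0.37. The difference between the NT response at DIV18 and the response at DIV7 was tested directly. It passed for 0 of the 10 genes, where 1.82% of 22459 genes passed. An unadjusted p under 0.05 was given by 11.2% of all genes and by 1 of the 10, Dpf2 (log2 difference 0.36, SE 0.127, adjusted p = 0.197, edgeR). The smaller Dpf2 value at DIV18 was therefore not shown to differ from that at DIV7 in the NT cultures.

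Bcl11b gave the largest DIV18 value for KCl in a single construct. In KO with vector it was at 64.6, 42.4 and 46.6 CPM at rest and 40.4, 38.5 and 39.0 CPM under KCl, all 3 depolarized libraries lying below the resting ones and resting replicate 1 standing above the rest. The log2 fold change was -0.38 (SE 0.146, adjusted p = 0.377, edgeR), and it passed when no filter on low counts was used. In NT it was 0.19 (SE 0.176), and the difference between these responses was -0.58 (SE 0.228, adjusted p = 0.501). That difference was called for none of the 10 genes, and for 0% of all genes (at an unadjusted p under 0.05 for 2 of the 10 and 8.81% of all), though Bcl11b passed there too with no low-count filter.

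The effect of losing Smarcc2 on these subunits was measured as KO with vector against NT. Averaged over states, Dpf2 was higher and the other 9 genes did not pass, where 11.2% of 20940 genes passed. The NT libraries ran from 46.4 to 52.7 CPM of Dpf2 (50.1 ± 2.67, SD, n = 4) and the vector libraries from 53.0 to 62.3 CPM (57.2 ± 3.23, SD, n = 6), without overlap. The log2 fold change was 0.19 (SE 0.0597, 95% interval 0.06 to 0.32, adjusted p = 0.0464, edgeR). The call was lost with no low-count filter (adjusted p = 0.227), in a fit of the compared groups alone (0.0508), and on leaving out any 1 of 8 of the 10 libraries, all except vector rest replicate 3 and vector KCl replicate 1 (0.0676 to 0.222). With length offsets the value was 0.30.

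Within one state no member passed. At rest the share of all genes that passed was 5.9% and under KCl 2.67%. An unadjusted p under 0.05 was given by 1 and 4 of the 10 members, beside 20.4% and 16.6% of all genes. In the resting libraries Dpf2 gave 0.09 (adjusted p = 0.582). In the depolarized ones it gave 0.29 (SE 0.0848, adjusted p = 0.0792), which passed with DESeq2 and with length offsets. The short form Dpf2-208 (314 bases) stood at 12.3 and 11.3 rescaled TPM in vector KCl replicates 2 and 3. It was at 0 in vector KCl replicate 1 and in all NT libraries. The part of this form in the length-offset values of Dpf2 was not tested. Bcl11b gave 0.13 (adjusted p = 0.696) in the resting libraries. In the depolarized ones it gave -0.44 (SE 0.161, adjusted p = 0.160), and all 3 vector libraries (38.5 to 40.4 CPM) lay below both NT libraries (59.3 and 47.4 CPM). Under KCl Bcl11b passed with no low-count filter. Averaged over states the progenitor members Actl6a (-0.32, adjusted p = 0.141) and Ss18 (-0.24, 0.232) and the neuronal Dpf3 (-0.34, 0.144) had lower values that did not pass.

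Markers of other cells differed between the same libraries. Averaged over states, 5 of 7 astrocyte, 5 of 8 oligodendrocyte-lineage and 4 of 9 progenitor or dividing-cell markers were lower in KO with vector than in NT, and none of them was higher. At rest the summed rescaled TPM was 720 to 826 in NT and 356 to 643 with vector for astrocytes, 170.0 to 184 and 115 to 125 for the oligodendrocyte lineage, and 62.2 to 81.5 and 23.4 to 49.5 for progenitors or dividing cells. Under KCl the sums were 591 to 960 and 369 to 430 for astrocytes, 107 to 178 and 95.05 to 113 for the oligodendrocyte lineage, and 43.3 to 65.6 and 30.1 to 35.1 for progenitors or dividing cells. Of the defining markers Sox10 was at 0 in all resting vector libraries and Eomes at 0 in all depolarized ones. Their part in the values of Dpf2, Actl6a, Ss18 and Dpf3 was not tested.

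In KO with vector averaged over states, where 11.2% of all genes passed, 3 of the other 21 BAF subunits were higher and 2 lower. The largest changes were in Smarcc2 itself (-2.32, adjusted p = 8.37e-11), the alternative ATPase Smarca2 (-0.41, 0.00221), the ARID subunit Arid1a (0.33, 0.00511) and Smarce1 (0.26, 0.0189), and the fifth was Arid2. The median of the 21 was -0.0038, and that of the 10 switch subunits -0.11. Of the 10 regulators of the exchange 2 passed, both lower: Rest, the repressor of neuronal genes (-0.57, adjusted p = 0.0402), and Ptbp1, the splicing repressor that miR-124 targets (-0.51, 0.0219, all from edgeR). Both are also expressed in non-neuronal cells, whose markers were lower in the same libraries, and the part of these cells in both values was not tested.

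None of the addback comparisons moved a switch subunit past the threshold. For WT against vector 0.0143% of all genes passed at rest and 0.00955% under KCl. For WT against NT the shares were 0.105% and 0.201%. Smarcc2 itself passed in all 4 of these. In the same order, an unadjusted p under 0.05 was given by 1, 1, 0 and 2 of the members and by 11.1%, 3.99%, 7.88% and 11% of all genes. The largest value among the members in each contrast was that of Phf10 in WT against vector at rest (0.23, SE 0.102, adjusted p = 0.424, edgeR), Dpf3 in the same contrast under KCl (0.42, SE 0.186, adjusted p = 0.999), Dpf3 in WT against NT at rest (-0.37, SE 0.223, adjusted p = 0.756) and Bcl11b in WT against NT under KCl (-0.39, SE 0.160, adjusted p = 0.372), which passed with no low-count filter. For Dpf2 in WT against NT the values were 0.08 at rest and 0.22 under KCl (adjusted p = 0.911 and 0.330), beside 0.09 and 0.29 for vector against NT, and both sets share the NT libraries.

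The serine substitutions gave no call among the members either. Smarcc2 itself was at a mean of 1225 CPM with S586E and 786 CPM with WT at rest. Under KCl it was at 1322 CPM with S586A and 907 CPM with WT. Substitution and Smarcc2 level therefore cannot be told apart in the contrasts with WT. For S586E against WT at rest and S586A against WT under KCl, 0% of genes passed. Against vector, 0.0191% passed for S586E and 0.00955% for S586A. At an unadjusted p under 0.05 the members gave 1, 0, 1 and 1 genes, beside 12.9%, 8.71%, 7.45% and 13% of all genes. For S586E against WT the members ran from -0.32 for Phf10 (SE 0.102, adjusted p = 0.212, edgeR) to 0.34 for Bcl11b (SE 0.162, adjusted p = 0.394), and for S586A against WT from -0.17 for Phf10 to 0.14 for Actl6a. The widest interval among the members in each of these contrasts was that of Dpf3. All 10 intervals lay between -0.53 and 0.68 for S586E and between -0.49 and 0.53 for S586A. Of the 2 named for S586E, the interval of Phf10 ran from -0.53 to -0.10 and did not include 0.

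**Figure D4:**
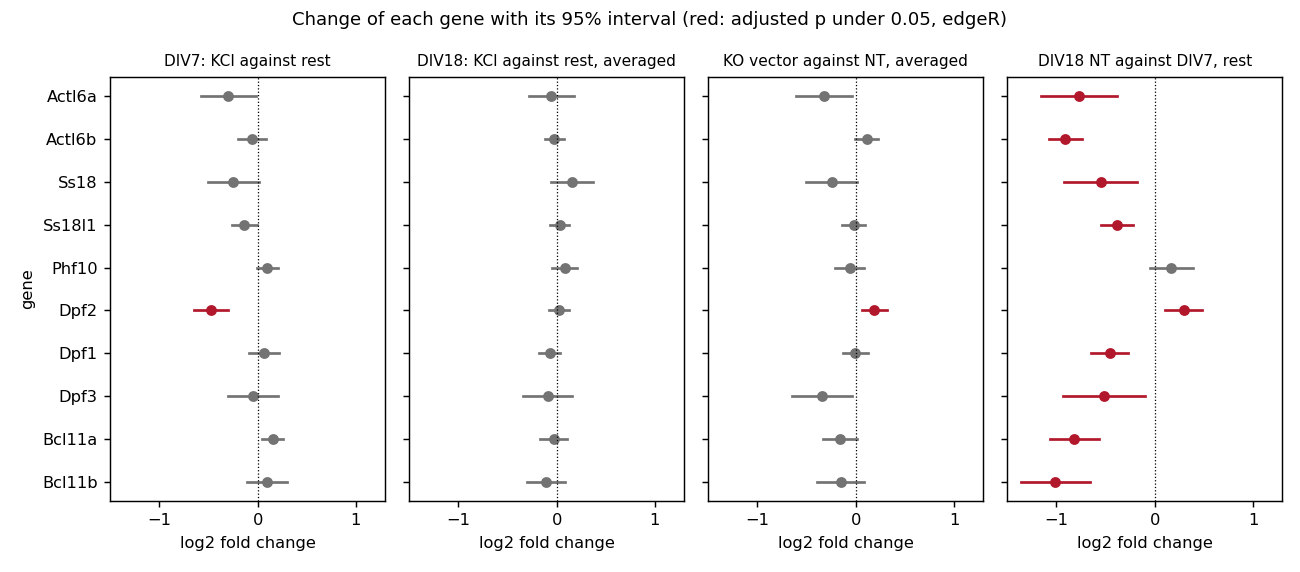
Log2 fold change (point) and 95% interval (line) of each gene in 4 comparisons; red marks an adjusted p under 0.05 in edgeR. Dpf2 is red on the lower side for KCl at DIV7 and on the higher side for KO with vector against NT, no gene is red for KCl at DIV18, and 9 are red between the ages at rest.

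Between the ages, most members were lower in DIV18 NT cultures than in DIV7 cultures. At rest 8 were lower and 1, Dpf2, was higher, where 52.7% of 22459 genes passed, 25.9% lower. Under KCl 7 were lower and again Dpf2 was higher, where 53.6% passed, 26.4% lower. All 4 neuronal members and both zinc-finger members were lower in both states. Actl6b was at 90.6 ± 5.29 CPM in resting DIV7 and 48.2 ± 3.38 CPM in resting NT cultures (SD, n = 2 each), a log2 fold change of -0.91 (SE 0.0815, adjusted p = 5.97e-09, edgeR).

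The other 5 of these gave log2 fold changes at rest of -1.01 for Bcl11b (adjusted p = 3.63e-05), -0.82 for Bcl11a (5.76e-06), -0.51 for Dpf3 (0.0351), -0.46 for Dpf1 (2.37e-04) and -0.38 for Ss18l1 (3.56e-04, all from edgeR). Among the progenitor members Actl6a was at -0.77 (0.00144) and Ss18 at -0.55 (0.0140), Phf10 at 0.17 (0.189), and Dpf2 at 0.30 (0.00867). Both members of the actin-like pair were therefore lower in NT. The mean Actl6b to Actl6a log2 ratio was 3.44 in resting DIV7 and 3.18 in resting NT libraries, and 3.77 and 3.28 under KCl (n = 2 each). In each state both NT libraries lay below both DIV7 libraries, and no test was run on this ratio. Pooled over states and constructs, the ratio was 3.61 (SD 0.244, n = 4) at DIV7 and 3.44 (SD 0.296, n = 20) at DIV18. Without 1 of the DIV7 or NT libraries at a time, 6 or 7 members passed at rest and 6 to 8 under KCl. Dpf3 at rest lost its call without any 1 of the 4 (adjusted p from 0.0622 to 0.179), Ss18 without either DIV7 library or NT replicate 1 (0.0513 to 0.152), and Dpf2 without DIV7 replicate 2 (0.109) or NT replicate 2 (0.0689). Under KCl Ss18l1 lost it without DIV7 replicate 2 or either NT library (0.0539 to 0.0947), and Dpf3 without DIV7 replicate 2 (0.0524) or NT replicate 2 (0.0682).

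Summed markers of other cells differed between the ages too. Astrocyte markers summed to 237 to 288 rescaled TPM at DIV7 and 356 to 960 at DIV18, and oligodendrocyte-lineage markers to 59.2 to 71.9 and 88.8 to 184. Their part in the values above was not tested.

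Length-aware values changed part of that picture. With offsets for effective length 5 members passed at rest, Actl6b (-0.89), Bcl11b (-0.89), Bcl11a (-0.61), Dpf1 (-0.46) and Ss18l1 (-0.31), all lower. Dpf2 turned to -0.17 (adjusted p = 0.260) and Dpf3 to 0.05 (0.897), and Actl6a (-0.63, 0.0771) and Ss18 (-0.49, 0.0910) no longer passed (edgeR). Under KCl 5 passed, Dpf2 at 0.29 among them (adjusted p = 0.0486), while Actl6a, Ss18l1 and Dpf3 did not. In rescaled TPM, Dpf2 stood at 82.1 and 71.9 in resting DIV7 libraries and at 75.6 and 73.6 in resting NT libraries, which overlap.

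Genes of neuronal maturation differed in both directions across the same contrast, in which 52.7% of all genes passed at rest. Of 16 such genes 8 were higher and 6 lower at rest, among them the kinase Camk2a (2.60), which was higher, and the growth-associated genes Gap43 (-3.19) and Sox11 (-2.56), which were lower (adjusted p at most 1.59e-10, edgeR). Of the 21 other BAF subunits 2 were higher and 11 lower, with a median of -0.28 beside -0.53 for the switch subunits. The largest were Bcl7c (-1.75, adjusted p = 1.25e-07), Smarce1 (-1.54, 4.42e-11), Brd9 (-1.29, 1.34e-09) and Actb (-1.15, 6.53e-07).

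The regulators of the exchange were also compared. Between the ages at rest, where 52.7% of all genes passed, 3 of 10 such genes were higher and 3 lower. The largest changes were in the miR-124 host transcript Mir124a-1hg (-2.01, adjusted p = 1.19e-06), the phosphatase gene Ctdspl (1.20, 2.90e-07), Mir9-3hg, a miR-9 host transcript (-0.81, 0.00275) and Ptbp2, the neuronal paralogue of Ptbp1 (-0.54, 3.52e-04, edgeR). Another miR-124 host transcript, Mir124-2hg, went the other way from Mir124a-1hg. It was higher in NT than at DIV7 at rest (0.44, adjusted p = 0.0170) and under KCl (1.67, 1.22e-08, edgeR). Under KCl at DIV7, where 17% of all genes passed, 3 of these regulators were lower: Mir124a-1hg (-2.12, adjusted p = 9.17e-06), Mir124-2hg (-1.35, 6.28e-04) and Ctdspl (-0.54, 0.0178). At DIV18, averaged over constructs, none of the 10 passed with KCl (smallest adjusted p = 0.689), with a median of 0.07.

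With KCl at DIV7, where 17% of all genes passed, 2 of the other 21 BAF subunits were higher and 3 lower. The largest of these were Smarcd2 (-1.12, adjusted p = 0.00173), Bicra (-0.44, 0.0292), Smarcd1 (-0.30, 0.0124) and Pbrm1, a subunit of the PBAF form (0.21, 0.0311, edgeR). At DIV18 none of them passed with KCl averaged over constructs (smallest adjusted p = 0.519). The median of the 21 was -0.01 at DIV7 and -0.03 at DIV18, beside -0.05 and -0.03 for the switch subunits.

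The genes whose level followed a member most closely over the 20 DIV18 libraries were ranked by Pearson's r of log2 CPM among 9249 protein-coding genes with a mean of at least 10 CPM, a limit that leaves out low genes. For Bcl11b, the member with the closest match, they were Apba1 (r = 0.936), Nefm (0.913) and Trpm3 (0.907), and for Actl6b Arfip2 (0.853), Cuedc2 (0.836) and Matr3 (0.833). Dpf1 was followed by Zbtb9 (0.827), Yjefn3 (0.813) and Irf2bp1 (0.793), and Actl6a by Aspscr1 (0.792), Ifngr2 (0.780) and Sumo2 (0.768). For Ss18l1 they were Cops7b (0.746), Cx3cl1 (0.725) and Sfxn3 (0.711), and for Ss18 Armc6 (0.716), Ermard (0.691) and Gmcl1 (0.676). For Bcl11a they were Lgi1 (0.911), Rapgef2 (0.900) and Csrnp3 (0.869), for Phf10 Cep85 (0.908), Ppp2r5a (0.895) and Ptk7 (0.874), for Dpf2 Peli1 (0.900), Gramd2 (0.852) and Ercc5 (0.850), and for Dpf3 Pcdhgb1 (0.789), Tiam2 (0.785) and Tuba1a (0.771). These are descriptions over libraries that share constructs, states and preparation, and they name the top 3 of many genes. The rankings for Bcl11a, Phf10, Dpf2 and Dpf3 were added after values had been seen.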

How the data were processed

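RNA-seq tables of 24 libraries were used, each listing 142552 mouse transcripts. Per the file headers, each table gives an effective length, an estimated count and TPM per transcript, and the submitters' processing notes name FastQC, cutadapt and kallisto, with no versions; the build and annotation are not given in the sources used here. The authors deposited estimated counts that need not be whole. The deposited TPM sum to the same total in each library. Of the transcripts 99.2% matched GENCODE M21 (GRCm38), and the rest held at most 0.467% of counts in a library.

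Counts of the transcripts of a gene were added and rounded to whole numbers. edgeR 4.0.16 (R 4.3.3) was run with TMM scaling, filterByExpr, the quasi-likelihood F test and Benjamini-Hochberg adjustment over all genes tested, and an adjusted p under 0.05 counted as passing. DIV7 (4 libraries), DIV18 (20 libraries, 8 groups) and, for contrasts of the ages, all 24 were fitted separately. CPM come from the fit of the contrast they stand beside. TPM were summed per gene and rescaled as the report says, and ratios within libraries have no test. The procedure was tested on simulated data. Alternatives were median-of-ratios factors, DESeq2 1.42.0, no filter, length offsets, a replicate block, other sets of libraries and leaving out each library.

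The named genes are the members, Smarcc2, Fos, the genes of the lists (other BAF subunits, regulators, neuron maturation and cell type markers) that passed, at most the 4 largest changes where more did, and the 3 genes most like each of 6 members. The result of 1 gene that the rule names is not reported here. Genes named beyond these were chosen after their values were seen. The members and lists were chosen with earlier results of these data known. In KO with vector, libraries with the same replicate number deviated together (correlations of 0.122, 0.229 and 0.382 for the 3 pairs), which is a pattern in the data and not a stated pairing. In KO with WT the same-numbered pairs correlated at -0.102 and -0.234.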

Additional observations from a re-analysis of the deposited data

Results flagged for a closer look

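No group held 4 or more libraries, so no group was searched for a library far from the others. In 10 genes of the lists the KCl response differed between the ages (edgeR's quasi-likelihood test of NT response minus DIV7 response, Benjamini-Hochberg over 22459 genes). For Smarcd2, a BAF subunit, the difference was 1.22 on the log2 scale (adjusted p = 0.00715), from -1.12 at DIV7 and 0.11 in NT. For the miR-124 host transcript Mir124a-1hg it was 1.80 (adjusted p = 0.00836), from -2.12 and -0.30. For Mir124-2hg it was 1.23 (adjusted p = 0.00248), from -1.35 and -0.11. Of the early-response genes 6 of 12 differed, with smaller log2 responses in NT than at DIV7. The difference was -4.85 for Fosb, -4.26 for Nr4a1, -3.88 for Fos, -3.48 for Egr1, -3.45 for Egr2 and -3.38 for Junb (adjusted p from 3.93e-05 to 0.0150). For Hes5, a progenitor and glial marker at low levels here, it was 3.32 (adjusted p = 0.0379), from -3.82 and -0.47. The ages differ in RNA selection, guides and DMSO as well, which cannot be told apart from age.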

How the results depend on the processing

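Among the 10 members, Dpf2 kept its lower value with KCl at DIV7 in every alternative run (log2 fold change -0.62 to -0.41, adjusted p at most 0.0480). The number of members that passed there was 1, and became 2 with median-of-ratios size factors (Bcl11a added) and 3 with the replicate block (Bcl11a and Ss18l1 added); same-numbered DIV7 libraries correlated at 0.445 in their deviations. With no low-count filter Bcl11b alone passed, 1 member, in KO vector KCl against rest, in vector and in WT against NT under KCl, and in the difference of the vector and NT responses, while vector against NT averaged over states fell to 0 (Dpf2 at 0.18). Vector against NT under KCl gave 1 member with the replicate block (Bcl11b), with length offsets (Dpf2) and with DESeq2 (Dpf2). In the 4 addback and 4 serine contrasts DESeq2 called 0 members and 6 to 323 genes in all, where edgeR called 0 to 42; for S586E against WT the counts were 323 and 0. The averaged contrast gave 0 in the fit of the compared groups alone and 0 to 1 on leaving out a library; with the replicate block it stayed at 1.

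Between the ages 9 members passed at rest and 8 under KCl; with length offsets 5 passed in each, and at rest Dpf2 turned to -0.17 and Dpf3 to 0.049. The replicate block gave 7 and 6. The cause was not tested. Over all genes the block moved the DIV7 KCl count from 3371 to 5857. In NT, same-numbered libraries correlated at -0.274, and a pairing with crossed numbers, chosen after seeing the data, gave 0 members and 6 genes in all, beside 2 without a block and 8 with it.

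With protein-coding transcripts only, the mean log2 ratio of Actl6b to Actl6a at DIV18 was 3.74, that of Ss18l1 to Ss18 2.03 at DIV7 and 2.38 at DIV18, and that of Dpf1 plus Dpf3 to Phf10 plus Dpf2 1.26 and 0.56. With estimated counts, which are not per length, Ss18l1 to Ss18 was 2.50 and 2.65, the PHD-finger ratio turned to -0.086 and -0.84, and Bcl11b to Bcl11a was -0.77 and -0.93. Depth limits Actl6a and Dpf3 most, with as few as 52 and 56 estimated counts in a DIV18 library, and groups of 2 or 3 libraries limit every test.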
